A study of Mus musculus with 2 samples.

Results

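The 10 genes described here mark dopamine neurons of the midbrain and the programme that makes them. They were chosen by symbol, through their Ensembl identifiers, out of 43346 genes quantified in the developing mouse central nervous system (strain C57BL/6J, embryonic day 14). Of these 10, 6 are transcription factors that specify the neurons (Nr4a2, Pitx3, Foxa1, Foxa2, Lmx1a and Lmx1b) and 4 make, load or take back the transmitter (Th, Ddc, Slc18a2 and Slc6a3). The study holds 1 group of 2 biological replicates, for which the labels state no mutation and no treatment, each a pool of male and female littermates. The replicates are separate biosamples with the same donor identifier, and their spread is the spread between 2 pools of embryos. The sequenced RNA was polyadenylated, longer than 200 nucleotides and depleted of ribosomal RNA, and was read from both ends with its strand kept. No conditions can be contrasted, and all values are compared between genes or between the replicates, without a p-value. Paired values are those of replicate 1 and then replicate 2, or for the mm9 tables those of field 1 and then field 2.

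Midbrain dopamine neurons arise from the floor plate, the ventral midline of the neural tube. The forkhead factors Foxa1 and Foxa2 and the LIM homeodomain factors Lmx1a and Lmx1b act in their progenitors. Nr4a2 (Nurr1), an orphan nuclear receptor, and Pitx3, a homeodomain factor, act in the young neurons after their last division. Tyrosine hydroxylase (Th) makes L-DOPA from tyrosine in the rate-limiting step, and aromatic L-amino acid decarboxylase (Ddc) turns it into dopamine. The vesicular transporter VMAT2 (Slc18a2) loads the transmitter into vesicles, and the dopamine transporter DAT (Slc6a3) takes it back up after release. Slc6a3 is the most restricted of the 4, since Th also serves noradrenaline neurons, and Ddc and Slc18a2 also serve serotonin neurons.

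Sequences are shown for the splice joints at which several members were read in 2 forms, and for the promoter element that Th and Slc18a2 share. The joints are from GENCODE M21 transcripts, 5′ to 3′. In Lmx1b (chromosome 2), capitals mark the 21 bases that a longer form of exon 7 adds.
Lmx1b short exon 7 end: cgccccaaatgccagggaacgactccatct
Lmx1b long exon 7 end: gccagGTGACCACATGAACCCCTATGggaa
In Slc18a2 (chromosome 19) and Nr4a2 (chromosome 2), capitals mark the bases after the joint.
Slc18a2 exon 7 to exon 8: tgctcttggatggagCTATTCAGCTCTTTG
Slc18a2 exon 7 to exon 9: tgctcttggatggagAGTCAGAAGGGGACA
Nr4a2 exon 2 to full exon 3: ataactctgctgaagCCATGCCTTGTGTTC
Nr4a2 exon 2 to short exon 3: ataactctgctgaagCTTCAGTACCTTTAT
Nr4a2 exon 6 to full exon 7: gcgcttagcatacagGTCCAACCCAGTGGA
Nr4a2 exon 6 to short exon 7: gcgcttagcatacagAATATGAACATCGAC
The promoter windows are from RefSeq (GRCm38.p6, the same coordinates as mm10), with the cyclic AMP response element TGACGTCA in capitals. The Th window is chr7:142900022-142900051 on the minus strand, and the Slc18a2 window is chr19:59260863-59260892 on the plus strand.
Th promoter: cagaggggcttTGACGTCAgcctggccttt
Slc18a2 promoter: agcgctgtccgTGACGTCAgagccggactg

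Total expected counts were 102727538 for replicate 1 and 138440954 for replicate 2, and ERCC spike-ins took 2.45% and 2.35% of them. The labelled tissue was checked by the neuronal genes Tubb3 (1820 and 2133 TPM, a length-scaled share of transcripts) and Stmn2 (603 and 606 TPM) and the progenitor genes Sox2 (56.8 and 85.1 TPM) and Nes (35.3 and 41.0 TPM). The replicates differed far beyond counting error, with a chi-square per degree of freedom of 163 (16721 genes). Among the lists read, those of skeletal muscle, inner ear and endoderm stood furthest apart, while lens genes (median log2 ratio -0.055, 1 gene with enough counts) did not. All 8 skeletal muscle genes with a mean of at least 50 expected counts were higher in replicate 1 by 1.5-fold or more, with summed levels over all 9 of 413 and 8.39 TPM. The same held for 3 of 3 inner ear genes (summed over 4 genes, 58.1 and 0.42 TPM) and for 4 of 4 endoderm and epithelium genes (summed over 8 genes, 17.1 and 3.53 TPM). The most abundant or most unequal of these were Mylpf (163 and 2.87 TPM), Acta1 (119 and 3.81 TPM), Ckm (16.4 and 0.06 TPM), Oc90 (56.0 and 0.31 TPM), Otog (1.1 and 0.05 TPM), Epcam (8.56 and 1.13 TPM), Cdh1 (5.98 and 2.01 TPM) and Alb (0.91 and 0.1 TPM). Their part in the members' values was not tested.

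All 10 members were detected at 1 TPM or more in both replicates, against 63.4% of 21474 protein-coding genes. TPM is scaled by transcript length, so levels of different genes can be set side by side. In bulk tissue, fewer cells of a type and less RNA per cell cannot be told apart. By mean level the order was Slc18a2, Th, Ddc, Nr4a2, Lmx1b, Lmx1a, Foxa2, Foxa1, Pitx3 and Slc6a3, and the means ran between 20.6 ± 6.42 TPM for Slc18a2 and 1.34 ± 0.141 TPM for Slc6a3 (SD, n = 2). Among the 9 pairs of neighbours in that order, the replicates' ranges did not overlap for Nr4a2 over Lmx1b and for Lmx1b over Lmx1a. The other 7 pairs overlapped, and the replicates disagreed on the order of Slc18a2 and Th and of Lmx1a and Foxa2.

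**Figure D1:**
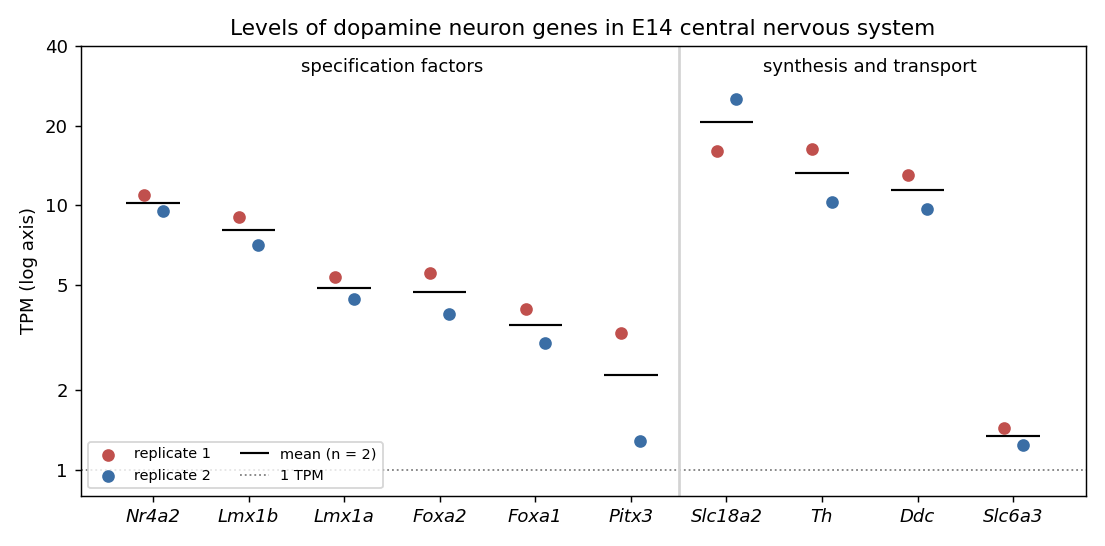
Level of each gene in TPM on a log axis, with a point for each replicate and a line at the mean of n = 2. The 6 specification factors lie between 1.29 and 10.9 TPM; Slc18a2, Th and Ddc lie at 9.70 TPM or above, and Slc6a3 lies at 1.44 and 1.24 TPM.

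The specification factors stood below the synthesis and transport genes as groups. Their median was 5.44 TPM in replicate 1 and 4.16 TPM in replicate 2, against 14.5 and 9.98 TPM for the synthesis and transport genes. On the log2(TPM + 1) scale, which understates differences of low genes, the difference of medians was -1.26 in replicate 1 and -1.09 in replicate 2 (-1.18 ± 0.12, SD, n = 2). The direction was the same in both replicates, and the difference was larger than its spread between them. The size rests on the summary and the unit: with means over each list it was -0.67, and with TMM-scaled CPM, which is not per length, it was -0.57. In the mm9 RPKM, with 1 added in the same way, it was -0.59. The members' mean RPKM lay only between 0.150 and 2.44, so the added 1 shrinks this value. It is therefore not a measure of a smaller difference on mm9. Slc6a3 went against the group, with a level below every specification factor in both replicates. Summed levels were 38.1 and 29.2 TPM for the 6 factors, against 46.8 and 46.3 TPM for the 4 synthesis and transport genes.

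Within the factors, those described above as acting in young neurons and those acting in progenitors could not be ordered as groups. In bulk tissue their levels do not measure either stage. The median of Nr4a2 and Pitx3 minus the median of Foxa1, Foxa2, Lmx1a and Lmx1b was 0.15 in replicate 1 and -0.071 in replicate 2 on the log2(TPM + 1) scale (0.039 ± 0.16, SD, n = 2). The sign differed between the replicates. Nr4a2 was the highest of the 6 factors and Pitx3 the lowest, in both replicates.

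Nr4a2 (ENSMUSG00000026826, chromosome 2, 57106830 to 57124003, minus strand, mm10), the nuclear receptor needed to make dopamine neurons, had 10.9 TPM in replicate 1 and 9.51 TPM in replicate 2. These came from 1991 and 2359 expected counts. It was the member with the smallest distance between replicates on the log2 scale, at 0.17 for replicate 1 over replicate 2 after TMM scaling (exact 95% interval 0.083 to 0.26, counting error only). Pitx3 (ENSMUSG00000025229, chromosome 19, 46135685 to 46148326, minus strand), needed for survival of the neurons of the substantia nigra, had 3.28 and 1.29 TPM from 240 and 130 expected counts (2.29 ± 1.41 TPM, SD, n = 2). It was 2.45-fold higher in replicate 1 than in replicate 2, a log2 ratio of 1.29 (0.98 to 1.62), and the only member more than 2-fold apart, against 5.89% of 16721 genes. The level of Nr4a2 was 3.32 times that of Pitx3 in replicate 1 and 7.37 times in replicate 2.

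Lmx1b (ENSMUSG00000038765, chromosome 2, 33560965 to 33640511, minus strand) had 9.03 and 7.05 TPM, and its paralogue Lmx1a (ENSMUSG00000026686, chromosome 1, 167689237 to 167848741, plus strand) had 5.35 and 4.42 TPM. Lmx1b therefore stood 1.69 and 1.60 times above Lmx1a. Foxa2 (ENSMUSG00000037025, chromosome 2, 148042877 to 148046969, minus strand) had 5.53 and 3.90 TPM. Foxa1 (ENSMUSG00000035451, chromosome 12, 57540628 to 57546916, minus strand) had 4.04 and 3.01 TPM. The forkhead pair kept their proportion as well, with Foxa2 1.37 and 1.30 times as high as Foxa1. All 4 of these factors were higher in replicate 1 than in replicate 2, with log2 ratios of 0.28 for Lmx1a, 0.32 for Lmx1b, 0.42 for Foxa1 and 0.52 for Foxa2, none of them reaching 1.5-fold.

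Th (ENSMUSG00000000214, chromosome 7, 142892752 to 142931128, minus strand) had 16.3 TPM in replicate 1 and 10.3 TPM in replicate 2, from 1680 and 1418 expected counts. It was 1.58-fold higher in replicate 1 than in replicate 2, a log2 ratio of 0.66 (0.56 to 0.76). Ddc (ENSMUSG00000020182, chromosome 11, 11814101 to 11898144, minus strand), the next enzyme of the pathway, had 13.1 and 9.70 TPM, a log2 ratio of 0.36 (0.25 to 0.47). The level of Th was 1.25 and 1.06 times that of Ddc, so both enzymes stood close together in each replicate.

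The transporters stood at opposite ends of the members' order. Slc18a2 (ENSMUSG00000025094, chromosome 19, 59260896 to 59296012, plus strand) had 16.0 and 25.1 TPM from 3658 and 7644 expected counts, and its mean lay above 67.8% of protein-coding genes. It was the only member lower in replicate 1 than in replicate 2, with a log2 ratio of -0.65 (-0.71 to -0.59), or 1.57-fold higher in replicate 2. Slc6a3 (ENSMUSG00000021609, chromosome 13, 73536747 to 73578672, plus strand) had 1.44 and 1.24 TPM from 296 and 342 expected counts, and its mean lay above 36.6% of protein-coding genes. Its log2 ratio of 0.21 had an interval that included 0 (-0.024 to 0.43), so a difference between replicates was not detectable at this depth. Per length, Th stood 11.3 and 8.27 times above Slc6a3, Ddc 9.06 and 7.82 times, and Slc18a2 11.1 and 20.3 times. The ratio of Slc18a2 to Th was 0.99 in replicate 1 and 2.45 in replicate 2, the pair of transmitter genes whose proportion differed most between the replicates among those compared.

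Of the 10 members, 2 (Th and Pitx3) were higher in replicate 1 by 1.5-fold or more, against 10.6% of 16721 genes with a mean of at least 50 expected counts. Slc18a2 was at least 1.5-fold lower in replicate 1 than in replicate 2, against 2.08% of those genes. In either direction this makes 3 of 10 members, against 12.7% of the genes. The log2 ratio was above 0 for 9 of 10 members, with a median of 0.34 over all 10, against 47.7% of the genes. With 10 members these counts describe the pair of libraries and were not tested. The same 3 members passed 1.5-fold under DESeq2 size factors, total counts of genes, ERCC spike-in totals and the ratio of TPM.

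**Figure D2:**
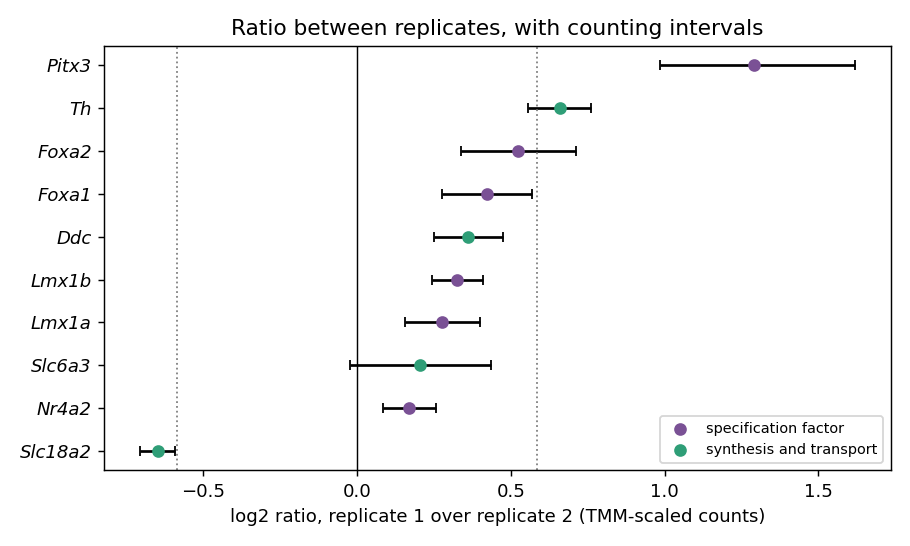
The log2 ratio of replicate 1 over replicate 2 of TMM-scaled expected counts for each gene, with exact 95% intervals that cover counting error only; dotted lines mark 1.5-fold in either direction. Pitx3 lies highest at 1.29, Th follows at 0.66, and Slc18a2 lies alone below 0 at -0.65.

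Counting strand is not stated for the tables, and 4 members overlap a gene on the other strand. The partners were at or near 0, with Gm29261 (Slc18a2) and Gm38011 (Lmx1b) at 0 counts in both replicates, Elovl3 (Pitx3) at 2 and 1 counts, and 1700042O10Rik (Ddc) at 10 and 8 counts.

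Other genes of the dopamine pathway were read beside the members. Tetrahydrobiopterin, the cofactor of tyrosine hydroxylase, is made from GTP by Gch1, Pts and Spr and regenerated by Qdpr. All 6 of its genes were detected and none was 1.5-fold apart between replicates (median log2 ratio 0.040). Gch1, the entry enzyme, was the lowest of the 6 at 3 and 2.32 TPM, below Th in both replicates. Qdpr had 60.5 and 62.3 TPM and Pts 30.4 and 33.5 TPM, so that Qdpr stood 20.2 and 26.9 times above Gch1. Of 3 genes that break monoamines down, 1 was at least 1.5-fold higher in replicate 1 and none lower (median log2 ratio 0.14). This was the monoamine oxidase gene Maob, at 2.29 and 1.29 TPM, while its relative Maoa had 12.8 and 12.4 TPM.

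Of 13 genes of ventral midbrain progenitors, 11 reached 1 TPM in both replicates. At least 1.5-fold higher in replicate 1 were 2, and 2 were at least 1.5-fold lower (median log2 ratio 0.10). Corin, a protease of the floor plate, had 2.60 and 0.83 TPM. The proneural factor Neurog2 had 43.1 and 97.1 TPM, lower in replicate 1. Neurog2 is also expressed in the forebrain, so its level is not that of the midbrain alone. Of 10 genes of maturing dopamine neurons, all were detected and 3 were at least 1.5-fold higher in replicate 1, with none lower (median log2 ratio 0.10). The neuropeptide gene Cck had 22.9 and 29.9 TPM, and the zinc finger gene Bnc2 had 14.3 and 8.37 TPM. These are levels of the whole tissue and need not be those of dopamine neurons alone.

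Most members are expressed in other cells as well, and lists for those cells are set beside them. Th and Slc18a2 serve noradrenaline neurons and sympathoadrenal cells. Of 10 such genes with enough counts, 8 were higher in replicate 1 by 1.5-fold or more and none lower, with a median log2 ratio of 1.46. The 11 genes summed to 201 and 123 TPM, led by Prph (93.1 and 29.4 TPM) and Chga (41.3 and 47.5 TPM). Hand2, a factor of the sympathetic lineage that the brain largely lacks, had 1.13 and 0.06 TPM, and Hand1 had 0.25 TPM in replicate 1 and was listed at 0 in replicate 2. Dbh, which makes noradrenaline from dopamine, had 2.08 and 0.75 TPM, so the level of Th was 7.82 and 13.7 times that of Dbh. Th was higher in replicate 1 as those 8 genes were, Slc18a2 was lower, and the part of these cells in the ratio of Th was not tested.

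Ddc, Slc18a2 and Lmx1b are also genes of serotonin neurons. Of the 5 serotonin neuron genes, 4 were higher in replicate 1 by 1.5-fold or more and none lower (median log2 ratio 0.78, summed level 19.9 and 11.7 TPM). Gata2 had 10 and 5.82 TPM, the serotonin transporter gene Slc6a4 had 5.24 and 3.42 TPM, and the factor Fev had 1.35 and 0.5 TPM. The level of Slc6a3 was 0.27 and 0.36 times that of Slc6a4. Slc18a2 is in mast cells and platelets too, where 2 of 5 genes with enough counts were at least 1.5-fold higher in replicate 1 and none lower (median log2 ratio 0.15, summed over 7 genes 69.4 and 62.0 TPM). Kit had 30.2 and 30.3 TPM, the platelet gene Pf4 22.9 and 24.9 TPM and the mast cell protease Cpa3 6.36 and 1.35 TPM. Slc18a2 was lower in replicate 1, where no gene of either list was lower by 1.5-fold, and their part in its level was not tested.

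Th is also made in the olfactory bulb and hypothalamus. Of 8 genes of these regions, 1 was at least 1.5-fold higher in replicate 1 and 3 were lower (median log2 ratio -0.23, summed level 294 and 347 TPM), with Meis2 at 173 and 173 TPM, Pax6 at 41.2 and 59.3 TPM and Nkx2-1 at 20.4 and 43.4 TPM. Pitx3 is expressed in the lens and in skeletal muscle. The 6 lens genes held 205 and 288 counts in all. The crystallin genes Cryaa and Crygs had 1 and 0 counts each, while the crystallin gene Cryba1 had 2 and 11 counts and Foxe3 had 0 and 3. Bfsp1 had 1.31 and 1.35 TPM and Mip 0.22 and 0.2 TPM. Bfsp1 thus held most of the lens counts, and the part of lens in the level of Pitx3 was not tested. The muscle genes given above were higher in replicate 1 by a median log2 ratio of 5.54, beside 1.29 for Pitx3, and their part in its level was not tested.

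Foxa1 and Foxa2 mark endoderm as well as the floor plate. The endoderm and epithelium genes were higher in replicate 1 by a median log2 ratio of 2.90 over the 4 with enough counts, and Foxa3, their endodermal relative, had 0.64 and 0.07 TPM and Hnf4a had 0.07 TPM and was listed at 0 in replicate 2. Their part in the ratios of Foxa1 and Foxa2 was not tested. Lmx1a is also in the roof plate, cortical hem and inner ear. None of 4 roof plate and cortical hem genes with enough counts was 1.5-fold apart (median log2 ratio -0.0040, summed over 5 genes 1013 and 1435 TPM, nearly all from the choroid plexus gene Ttr at 999 and 1422 TPM, with Rspo1 at 7.72 and 7.49 TPM). The inner ear genes had a median log2 ratio of 4.51, beside 0.28 for Lmx1a, and the part of these lists in its level was not tested. Lmx1b is also in the dorsal horn, where none of 3 genes was 1.5-fold apart (median log2 ratio 0.31, summed level 33.0 and 25.9 TPM), with Pou4f1 at 16.8 and 13.5 TPM and Tlx3 at 11.02 and 8.19 TPM.

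Nr4a2 is also a gene of the subplate and deep cortex and responds early to activity in neurons. Of 4 subplate and deep cortex genes with enough counts, 1 was at least 1.5-fold higher in replicate 1 and 2 were lower (median log2 ratio -0.34, summed over 5 genes 179 and 296 TPM). These were Ccn2 at 31.0 and 9.89 TPM, and Neurod6 at 89.0 and 203 TPM and Tbr1 at 29.7 and 60.6 TPM. Of 6 immediate early genes, 3 were at least 1.5-fold higher in replicate 1 and none lower (median log2 ratio 0.50, summed level 30.7 and 22.3 TPM), with Junb at 7.89 and 6.52 TPM, its relative Nr4a1 at 8.74 and 5.22 TPM and Egr1 at 5.09 and 1.94 TPM. Nr4a2, at a log2 ratio of 0.17, lay between these lists, and their part in its level was not tested.

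**Figure D3:**
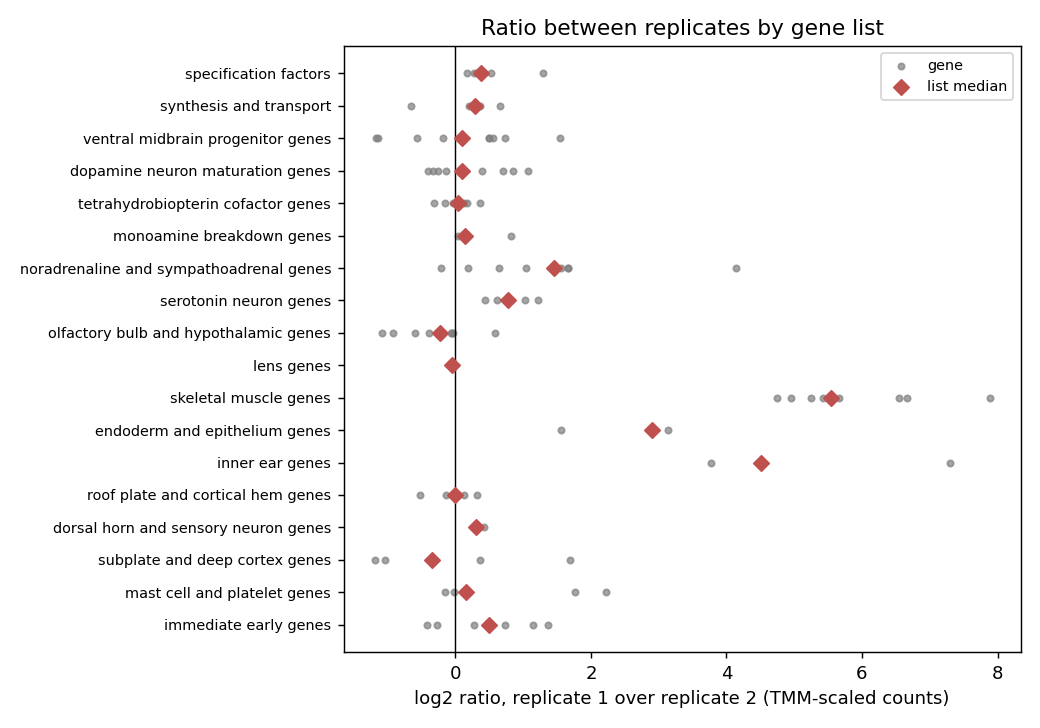
The log2 ratio of replicate 1 over replicate 2 for each gene with a mean of at least 50 expected counts (grey points) and the median of each list (red diamonds). The specification factors and the synthesis and transport genes have medians of 0.37 and 0.28, while the skeletal muscle, inner ear, endoderm and noradrenaline lists lie further to the right at 5.54, 4.51, 2.90 and 1.46.

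The members differed in how many transcripts carried their reads. Th was assigned to a single transcript at 100% of the gene's TPM in both replicates, out of 6 annotated transcripts. Slc18a2, Slc6a3 and Foxa1 have 1 annotated transcript each, so their 100% was fixed in advance and shows nothing about their forms. Pitx3-201 held 97.1% and 100% of Pitx3, and Lmx1a-201 held 96.9% and 95.1% of Lmx1a. Ddc-202 held 81.5% and 86.7% of Ddc, while Ddc-201, which starts at a farther exon, held 0.94% and 0.53%. By these model shares Nr4a2 was spread most widely, with 4 of 6 transcripts above 5% in both replicates. Among the 4 are the processed transcript Nr4a2-205 (13.8% and 13.6%) and the nonsense-mediated decay transcript Nr4a2-206 (8.59% and 5.95%). Reads across the first splice junction of Nr4a2-205, given below, did not show a share of that size. Nr4a2-201 held 48.4% and 62.1% and Nr4a2-203, which starts at an exon farther upstream, held 23.0% and 13.9%. Foxa2-202 held 57.3% and 46.5%, and Foxa2-204 held 35.2% and 31.2%. These shares are model estimates with no interval, and Foxa2 rests on 490 and 454 expected counts.

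A separate deposited table on mm9 counts the reads across each splice junction in 2 fields, which the labels do not match to the numbered replicates, so they are called field 1 and field 2 and no direction between replicates is read from them. The fields held 52713700 and 71600793 junction reads, a ratio of field 2 to field 1 of 1.36. Every intron of the leading transcript of every member was crossed by reads. The 12 introns of Th had 1844 and 1496 reads, with field 1 higher at 11 of 12. The 15 introns of Slc18a2 had 2965 and 6310 reads, a ratio of 2.13, with field 2 higher at all 15. The fields thus stood in opposite order at Th and Slc18a2 at all introns but 1 of Th. The 14 introns of Ddc had 1519 and 1669 reads, and the 14 of Slc6a3 had 253 and 249 reads, with as few as 7 reads at a single intron over both fields.

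**Figure D4:**
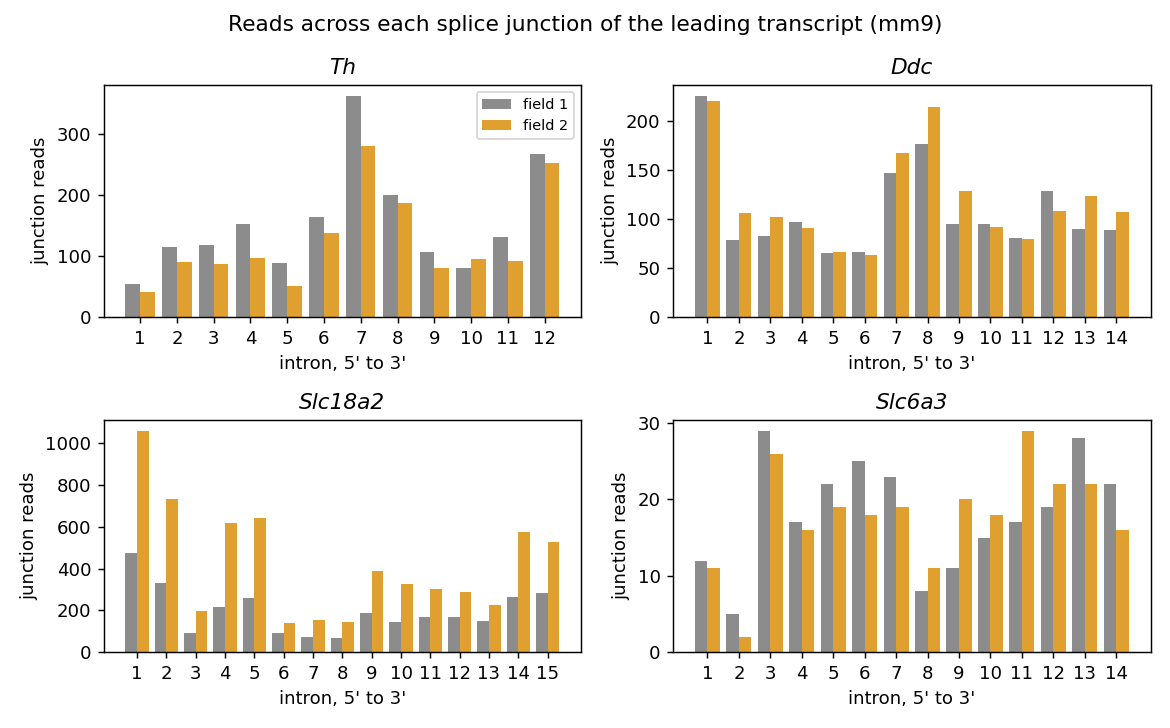
Reads across each intron of the leading transcript of Th, Ddc, Slc18a2 and Slc6a3, numbered from the 5′ end, in both fields of the mm9 junction table; the vertical axes differ between panels. Field 2 is higher at all 15 introns of Slc18a2, and field 1 is higher at 11 of 12 introns of Th.

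The leading transcripts of the factors had 718 and 811 reads for Nr4a2, 485 and 557 for Lmx1b, 403 and 520 for Lmx1a, 65 and 43 for Pitx3, 38 and 27 for Foxa1 and 24 and 21 for Foxa2. Foxa1 and Foxa2 have only 1 intron each in these transcripts, so their splice forms cannot be read in depth. The first intron of Foxa2-204, which another Foxa2 transcript shares, had 1 read in field 1 and 1 in field 2. The model shares of Foxa2-204 were 35.2% and 31.2% of the gene. The few junction reads did not show a share of that size, and the cause was not tested. The same was seen for Nr4a2-205, with model shares of 13.8% and 13.6% of the gene. Its first intron, which no other Ensembl 65 transcript of Nr4a2 holds, had 2 reads in field 1 and 0 in field 2. The first intron of the leading Nr4a2 transcript had 57 and 86 reads, and the cause was not tested here either.

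Where an intron has alternative ends, the junction reads show how often each was used. In Lmx1b, the 21-base longer exon 7 printed above was used by 22 of 86 reads in field 1 (25.6%, exact 95% interval 16.8 to 36.1%) and 47 of 124 in field 2 (37.9%, 29.3 to 47.1%). This site is in no Ensembl 65 transcript of Lmx1b but is in GENCODE Lmx1b-203, to which the transcript tables gave 12.5% and 14.0% of the gene. In Slc18a2, exon 7 was joined to exon 9, leaving out the 44-base exon 8, by 9 reads in field 1 and 15 in field 2, against 74 and 154 reads that joined it to exon 8 (10.8% and 8.88% of reads). The mm10 tables list a single Slc18a2 transcript, which holds exon 8, so this form has no value there.

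In Nr4a2, the short form of exon 7, which lacks 121 bases, took 22.7% of reads in field 1 (17 against 58) and 14.1% in field 2 (9 against 55). The short form of exon 3, which lacks 178 bases, took 9.66% (14 against 131) and 11.7% (17 against 128). Reads from the far first exon, 9111 bases upstream of the near first exon, made up 8.06% (5 against 57) and 10.4% (10 against 86). In Ddc, 10 of 186 reads in field 1 joined the end of intron 8 to a site 3472 bases after its usual beginning (5.38%, 2.61 to 9.66%). In field 2 these were 0 of 214 (upper bound 1.71%). This junction is the first intron of Ddc-205, so it can mark a start inside the gene and not a choice of splice site. The transcript tables gave Ddc-205 3.90% of the gene in replicate 1 and 0.31% in replicate 2. Of all 18 choices counted, the Ddc choice was the only 1 at which the intervals of the fields did not overlap, and differences between fields were not tested. The 6 choices given here were picked after their values were seen. For the far first exon, the transcript table gave Nr4a2-203 a larger share, 23.0% and 13.9%, and the junction reads cover only 1 intron of it.

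**Figure D5:**
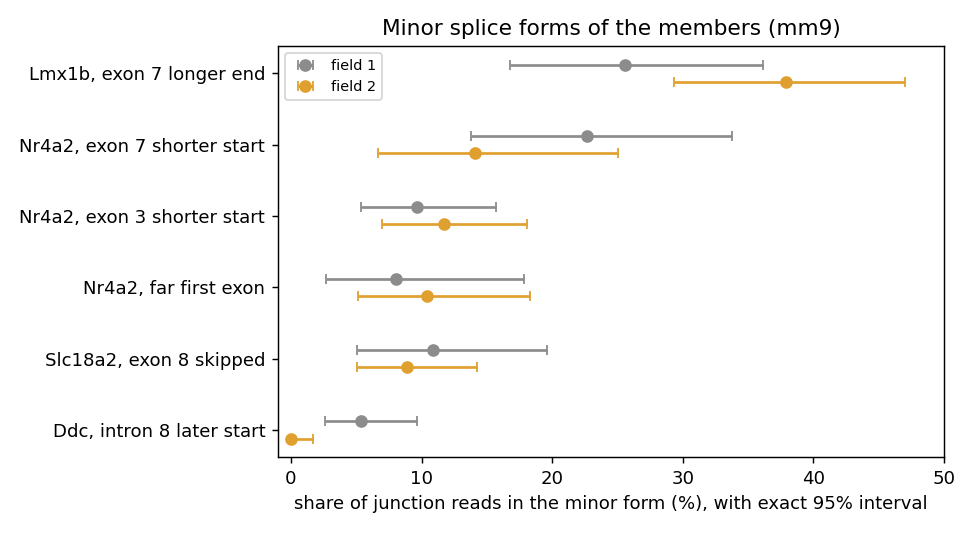
Share of junction reads in the minor form at 6 of the 18 splice choices, in percent, for field 1 and field 2 of the mm9 junction table, with exact 95% intervals that cover counting error only. Of these 6, the longer exon 7 of Lmx1b has the highest share, 25.6% and 37.9%, and the fields' intervals overlap at all but the Ddc choice.

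The starts of Th and Ddc were read the same way. No read in either field joined the far first exons of Th to the body of the gene, while the near first intron had 54 and 42 reads. Another 6 and 4 reads joined the second exon of Th to a site 1450 bases further upstream that no Ensembl 65 transcript holds. Other such sites, still farther upstream, were joined to the same exon by 2 and 4 reads and by 0 and 1 reads. For Ddc, the nearer of the known first exons (in rat, the start used in neurons) had 225 and 220 reads and the farther had 0 in both fields, a count that allows up to 3 reads. Ddc-201, which holds the farther first exon, had the shares of 0.94% and 0.53% given above.

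The deposited mm9 gene table gives RPKM in 2 fields, on its own scale. Besides the group difference given above, which the added 1 shrinks, only the order of genes was read from it. By the mean of both fields, Slc18a2 was again highest (2.44 RPKM) and Slc6a3 lowest (0.150 RPKM), with Pitx3, Foxa1, Lmx1a, Foxa2 and Lmx1b between 0.296 and 0.994 RPKM. Ddc (1.49 RPKM), Nr4a2 (1.48 RPKM) and Th (1.47 RPKM) stood within 0.03 of each other, so that Th was ranked 4 here and 2 on mm10. Slc18a2 was higher in field 1 of this table (2.94 and 1.94 RPKM) but in field 2 of the junction table, so fields of the same number need not be the same library.

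RefSeq gave 13 promoter windows for the 10 members, each of 250 bases before to 50 after a start, on GRCm38.p6. The cyclic AMP response element TGACGTCA, which reads the same on both strands, was found in the windows of Th, starting 45 bases before the start, and of Slc18a2, starting 4 bases before it. It was in 1.79% of 32851 windows. The sequence AAAGGTCA, bound by Nr4a2 as a monomer, was in 1 window of Ddc on the opposite strand, starting 73 bases before the farther start, the start with 0 junction reads, and in 1.51% of all windows. TGTTTAC, a forkhead sequence, was in the Foxa1 window and in 3.65% of all, and TATAAA was in 1 window each of Nr4a2, Foxa2 and Ddc and in 13.6% of all. TAATTA, read by LIM homeodomain factors (5.29% of all), and TAATCC, read by Pitx factors (7.06% of all), were in none of the 13 on either strand. A match is a run of letters and not a measured binding site.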

How the data were processed

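Expression was measured by RNA-seq in 2 replicates of 1 group, numbered per the labels. The authors' deposited gene and transcript tables on mm10 with GENCODE M4 hold expected counts, TPM, FPKM and, per transcript, the percent of the gene's TPM, per the text deposited with the files. On mm9 the deposited tables hold RPKM for Ensembl 65 genes and a count of reads per splice junction, in 2 fields not matched to replicates. Neither aligner nor quantifier is given in the sources used here.

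The members and lists were chosen with earlier results of these data known. The 16 context lists hold 109 genes. Named were all 10 members and, from each other list, the 2 genes with the highest mean TPM and the most unequal among those averaging 50 or more expected counts. A few more list genes (Dbh, Hand1, Foxa3, Hnf4a, Cryaa, Crygs, Cryba1 and Foxe3) were named after their values were seen. Some genes covered by this rule are not reported here. Expected counts were rounded and scaled by TMM (edgeR 4.0.16, R 4.3.3) with a prior count of 1. The scaling was tested on simulated data with a fixed spread that was not fitted to these replicates. That test does not show how the scaling performs on libraries as far apart as these. Differences of medians used log2(TPM + 1). Intervals are exact 95% binomial intervals and cover counting error only, since PCR reads are not independent molecules. The 13 promoter windows matched all 10 members. Python 3.11.15, pandas 2.3.3, scipy 1.17.1 and matplotlib 3.10.9 were used. Alternatives were other scalings (DESeq2 1.42.0), units, pseudocounts, thresholds and each replicate alone. Assembled mm9 models and contigs were not used here.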

Additional observations from a re-analysis of the deposited data

How the results depend on the processing

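The specification factors stayed below the synthesis and transport genes under all 7 alternatives, but the size of the difference (-1.18) moved. It was -1.32 with a pseudocount of 0.1 TPM, -0.57 in TMM-scaled CPM, -0.59 in mm9 RPKM and -0.67 with means. The mm9 value is shrunk by the 1 added to low RPKM values. In TPM the difference ranged from -1.26 to -1.09 over each replicate alone. The difference of late and early factors (0.039) turned to -0.040 with a pseudocount of 0.1 TPM, -0.33 in TMM-scaled CPM and -0.032 with means, and ranged from -0.071 to 0.15 over each replicate alone, so its sign is not fixed; the cause was not tested. At a fold of 2 in place of 1.5, 1 member in place of 3 was apart, by the stricter fold itself. All 40 recomputed ratios of single members stayed on the same side, under 4 scalings. Of the 10 members, 8 reached 2 TPM and 8 reached an FPKM of 1 in both replicates. No paired analysis was possible because there is 1 group. Depth limits Slc6a3, Foxa1, Foxa2 and Pitx3 most, with few junction reads, and 2 pools give only a coarse estimate of spread.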
